A study of Mus musculus with 96 samples.

Results

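Glutamate receptors and GABA-A receptors carry most fast excitation and inhibition in the brain, and 32 of their subunit genes were followed here through 96 bulk RNA-seq libraries from mouse brain. The genes were found by symbol, and all 32 were present in both count tables, each of which listed 32594 genes. They comprised 4 AMPA receptor subunits (Gria1 to Gria4), 6 NMDA receptor subunits (Grin1, Grin2a to Grin2d, Grin3a), 5 kainate receptor subunits (Grik1 to Grik5), the delta subunit Grid1, 6 metabotropic glutamate receptors (Grm2 to Grm5, Grm7, Grm8) and 10 GABA-A receptor subunits (Gabra2 to Gabra6, Gabrb1, Gabrb2, Gabrg1, Gabrg3, Gabrd). Other subunits were not analysed here. Of the 32 genes, 31 passed the filter on low counts in every set of libraries. The exception was Gabra6, the alpha6 subunit known from cerebellar granule cells, which had no read in 19 of 48 libraries at 3 days post-injury (dpi) and in 9 of 48 at 29 dpi.

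Male C57BL/6 mice aged 8 to 10 weeks had received a controlled cortical impact on the left side (TBI) or a sham procedure of anesthesia and scalp incision without craniectomy (Sham). They were given candesartan (CD), an angiotensin AT1 receptor blocker, at 0.1 mg/kg per day, or vehicle (VH), with the first injection 6 h after surgery, and then further injections until 3 dpi or an osmotic pump until 29 dpi. RNA came from the ipsilateral hippocampus, which lies under the impact, the thalamus and the hypothalamus. Each region and time point had 4 groups with 4 libraries in each, namely vehicle-treated (Sham + VH and TBI + VH) and candesartan-treated (Sham + CD and TBI + CD). The labels do not say which libraries came from the same mouse, and the samples sequenced had been picked for RNA quality, so p-values measure the spread between these samples only. Because the sham mice had no craniectomy, the injury contrast holds the opening of the skull together with the impact.

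AMPA, NMDA, kainate and GABA-A receptors are ion channels built of several subunits around a pore, and the choice of subunits sets their kinetics and pharmacology. NMDA receptors need the obligatory subunit GluN1, encoded by Grin1, with partners such as GluN2A and GluN2B, encoded by Grin2a and Grin2b. Metabotropic glutamate receptors act through G proteins, some of them on astrocytes. GABA-A receptors that hold the delta subunit lie outside the synapse and carry tonic inhibition.

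The libraries held 6663629 to 38589791 counts. The median per set of 16 libraries ranged from 23561848 to 28155003. Levels are given as CPM, the counts relative to the library size, scaled by TMM within the 16 libraries of a region and time point or, for levels compared between regions, within the 48 libraries of a time point. A gene was called where the false discovery rate (FDR) of edgeR's quasi-likelihood test, adjusted over all genes tested, was under 0.05 and the absolute log2 fold change was above 0.32. The summed markers of each region were highest in the libraries labelled with that region, although the single hippocampal marker Prox1 had a higher median in the thalamus (47.5 CPM) than in the hippocampus (38.5 CPM) at 3 dpi. The summed CPM of 10 thalamic neuron markers ran from 2134 to 3469 in the thalamus at 3 dpi, against 130.5 to 247 in the hippocampus. It reached 449 to 692 in the hypothalamus. Conversely, 10 hypothalamic neuron markers summed to 857 to 1772 CPM in the hypothalamus but ranged from 18.9 to 715 CPM among the thalamus libraries. In bulk samples, fewer cells of a type and less RNA per cell cannot be told apart.

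The subunit genes are long. They spanned 13.0 to 922 kb, with a median of 224 kb, against a median of 15.8 kb over all annotated genes in the tables (GENCODE vM21 on GRCm38). Upstream sequence from RefSeq (GRCm38.p6) was at hand for 22 of the 32 genes. The 250 bases before the start are shown, 5′ to 3′ on the strand of the gene, for 4 genes that changed in the injured hippocampus, namely Grm2 (chr9:106656110-106656359, minus strand), Grm3 (chr5:9725353-9725602, minus strand), Gabrb2 (chr11:42420190-42420439, plus strand, the first of 3 listed starts, inside an intron of the longer GENCODE gene) and Grin2c (chr11:115267244-115267493, minus strand). Capitals mark the GC box letters GGGCGG or, on the other strand, CCGCCC, and copies may overlap.

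Grm2: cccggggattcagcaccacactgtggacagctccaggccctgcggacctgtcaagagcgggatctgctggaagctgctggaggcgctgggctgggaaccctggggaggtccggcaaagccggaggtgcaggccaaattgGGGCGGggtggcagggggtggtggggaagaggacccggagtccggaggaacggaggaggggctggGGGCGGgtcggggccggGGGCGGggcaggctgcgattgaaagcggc

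Grm3: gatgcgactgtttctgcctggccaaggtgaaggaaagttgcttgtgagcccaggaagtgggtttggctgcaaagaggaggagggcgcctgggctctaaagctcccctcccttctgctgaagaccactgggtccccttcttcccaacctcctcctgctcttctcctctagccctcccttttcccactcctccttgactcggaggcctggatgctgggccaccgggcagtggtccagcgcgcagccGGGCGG

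Gabrb2: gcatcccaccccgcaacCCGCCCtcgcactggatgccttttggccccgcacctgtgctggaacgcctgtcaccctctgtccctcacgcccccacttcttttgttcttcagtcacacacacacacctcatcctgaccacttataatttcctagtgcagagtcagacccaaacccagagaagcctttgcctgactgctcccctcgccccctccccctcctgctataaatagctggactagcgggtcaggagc

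Grin2c: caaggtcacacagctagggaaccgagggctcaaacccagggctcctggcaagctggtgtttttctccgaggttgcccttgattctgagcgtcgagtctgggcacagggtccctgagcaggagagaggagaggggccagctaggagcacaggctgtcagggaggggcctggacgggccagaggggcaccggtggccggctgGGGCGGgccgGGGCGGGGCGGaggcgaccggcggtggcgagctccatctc

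Grm2 and Grin2c each held 3 GC boxes in this window, and Grm3 and Gabrb2 held 1 each. At least 1 GC box was found in 32.7% of all 32841 listed windows of this length. Only Gabrb2 of the 4 held the letters TATAAA, which occurred in 12.4% of all windows. The windows were rich in G and C, at 71.2% in Grm2, 68.8% in Grin2c, 62.4% in Grm3 and 58.8% in Gabrb2.

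Before any injury effect is considered, the subunits differed widely between regions. In Sham + VH mice at 3 dpi, 14 of the 31 tested subunits were higher and 11 lower in the thalamus than in the hippocampus, 10 were higher and 16 lower in the hypothalamus than in the hippocampus, and 7 were higher and 9 lower in the hypothalamus than in the thalamus. Of all genes tested, 40.9%, 46.7% and 28.6% were called in these 3 comparisons in either direction. At 29 dpi the counts were 14 and 11, 11 and 15, and 10 and 11 of 32 subunits, against 39.3%, 45% and 32.9% of all genes. The plot of levels by region shows all 31 subunits.

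**Figure D1:**
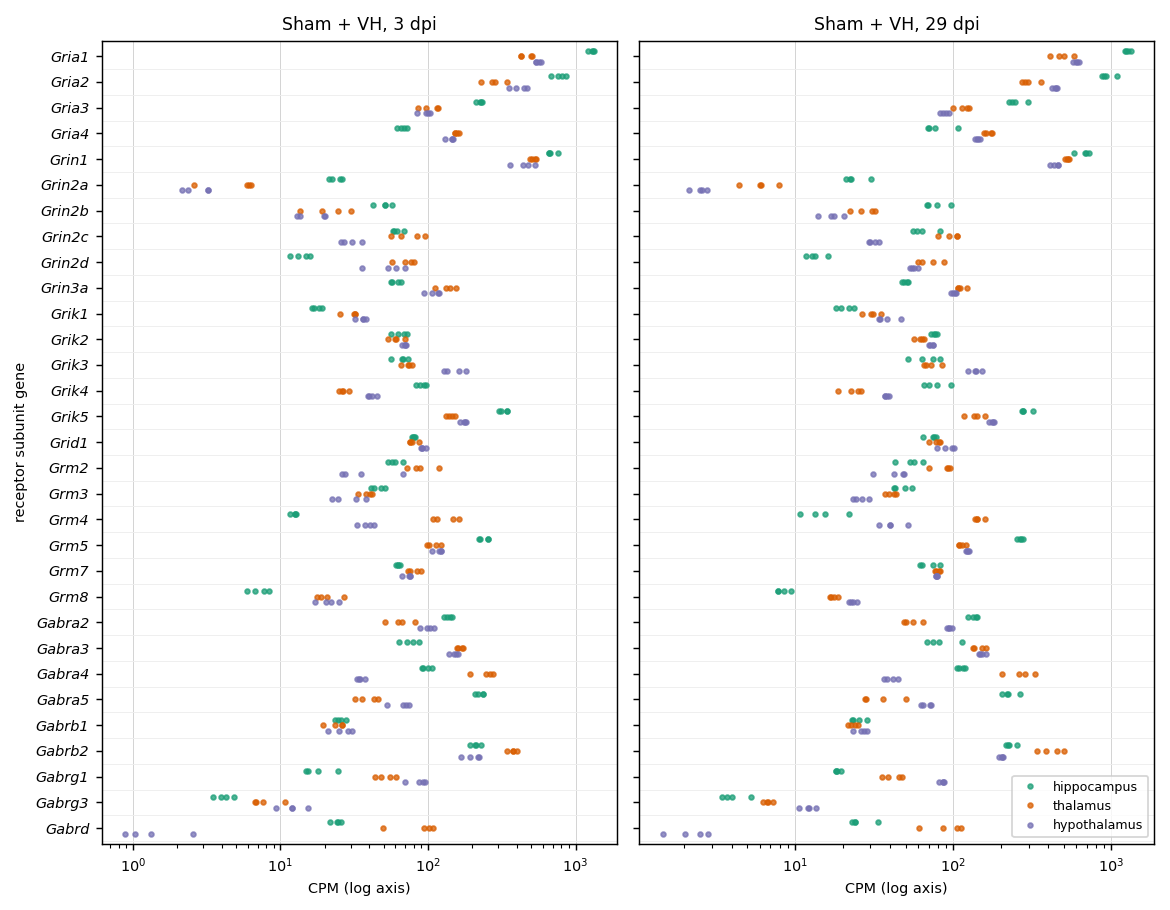
Level of each subunit gene in the 4 Sham + VH libraries of each region, at 3 dpi (left) and 29 dpi (right), in CPM on a log axis. Each point is 1 library. Gria1 reached about 1285 CPM in the hippocampus, while Gabrd in the hypothalamus lay near 1.45 CPM at 3 dpi.

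The hippocampus had the highest mean of 12 subunits at 3 dpi. These were the AMPA subunits Gria1, Gria2 and Gria3, the NMDA subunits Grin1, Grin2a and Grin2b, the kainate subunits Grik4 and Grik5, the metabotropic receptors Grm3 and Grm5, and the GABA-A subunits Gabra2 and Gabra5. Gria1, which encodes GluA1, stood at 1285 CPM ± 53.0 (SD, n = 4) in the hippocampus, against 465 ± 44.0 for the thalamus and 558 ± 21.5 for the hypothalamus. The thalamus led for 11 subunits, namely Gria4, Grin2c, Grin2d, Grin3a, Grm2, Grm4, Grm7, Gabra3, Gabra4, Gabrb2 and Gabrd. The hypothalamus led for 8 of the 31, among them Gabrg1, Gabrg3 and Grm8. The leading region was the same at 29 dpi for 29 of the 31, the exceptions being Gabra3 and Grik2.

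The largest differences between thalamus and hippocampus were in Grm4, Gabra5 and Grin2d. Grm4, the presynaptic receptor mGlu4 (chr17:27422387-27521403), measured 148, 161, 114 and 109 CPM in the Sham + VH thalamus and 12.5, 12.5, 11.6 and 12.8 CPM in the hippocampus at 3 dpi. It was 10.8-fold higher in the thalamus (log2 fold change 3.43 ± 0.13 SE, FDR = 1.77e-24). Gabra5, which encodes the alpha5 subunit of extrasynaptic receptors of hippocampal pyramidal cells (chr7:57407672-57510059), had the opposite order, with 209 to 236 CPM in the hippocampus and 31.8 to 45.8 CPM in the thalamus. Its log2 fold change was -2.52 ± 0.14 SE (FDR = 3.62e-19). Grin2d, the GluN2D subunit gene (chr7:45831883-45878378), ranged from 56.9 to 80.8 CPM in the thalamus and from 11.6 to 15.9 CPM in the hippocampus, a log2 fold change of 2.35 ± 0.16 SE (FDR = 1.18e-16). None of these ranges overlapped, and the same 3 genes led at 29 dpi with log2 fold changes of 3.30, -2.69 and 2.41.

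Between hypothalamus and hippocampus the leading genes were Gabrd, Grin2a and Gabrg1. Gabrd, the delta subunit gene (chr4:155384980-155398112), measured 2.57, 1.03, 1.33 and 0.89 CPM in the Sham + VH hypothalamus, 25.5, 24.5, 21.7 and 24.0 CPM in the hippocampus, and 108, 101, 93.8 and 49.2 CPM in the thalamus at 3 dpi. The 3 regions did not overlap. The log2 fold change of the hypothalamus was -4.05 ± 0.43 SE against the hippocampus (FDR = 7.32e-11) and -5.92 ± 0.43 SE against the thalamus (FDR = 1.08e-14). Grin2a (chr16:9567898-9995560) fell from 21.3 to 26.3 CPM in the hippocampus to 2.15 to 3.22 CPM in the hypothalamus, a log2 fold change of -3.11 ± 0.21 SE (FDR = 7.46e-17). Gabrg1, which encodes the gamma1 subunit (chr5:70751047-70842617), was instead higher in the hypothalamus, with 70.1 to 94.9 CPM against 14.8 to 24.6 CPM (log2 fold change 2.25 ± 0.14 SE, FDR = 3.83e-18).

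Gabra4, the usual alpha partner of the delta subunit in the forebrain (chr5:71569749-71658308), and Grm4 followed Gabrd among the largest differences between hypothalamus and thalamus. Gabra4 stood at 193 to 277 CPM in the thalamus and 33.3 to 37.6 CPM in the hypothalamus (log2 fold change -2.81 ± 0.14 SE, FDR = 9.58e-19), and Grm4 gave -1.79 ± 0.12 SE (FDR = 1.39e-15). At 29 dpi Gabrd, Gabra4 and Grm4 gave -5.44, -2.75 and -1.81. In contrast, Gabrb1, the beta1 subunit gene, was not called between any pair of regions at either time point. Its Sham + VH means at 3 dpi were 25.4 CPM in the hippocampus, 23.7 for the thalamus and 26.3 for the hypothalamus. The kainate subunit gene Grik2 was not called in any pair either. Its means there were 64.8, 61.1 and 69.4 CPM.

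Several GABA-A genes sit next to each other on the chromosome and yet differed in level between regions. Gabrg1, Gabra2, Gabra4 and Gabrb1 lie in this order on chromosome 5. Gabra4 and Gabrb1 are encoded on opposite strands and overlap by 196 bases at their 5′ ends in GENCODE, so that without a stated strand setting a few reads of the one could be counted for the other. Gabra4 had means of 97.5, 245 and 34.8 CPM in hippocampus, thalamus and hypothalamus of Sham + VH mice at 3 dpi, while Gabrb1 stayed within 23.7 to 26.3 CPM. On chromosome 7, Gabrg3 and Gabra5 lie 20.5 kb apart on the same strand. Gabra5 was highest in the hippocampus at 225 CPM, and Gabrg3 was lowest there at 4.15 CPM, against 7.94 CPM in the thalamus and 12.2 CPM in the hypothalamus.

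Levels of different genes can be compared only per length, and for this the CPM was divided by the merged exon length of each gene. On that scale Gria1 led the AMPA genes in Sham + VH mice at 3 dpi, with 71.8% of the summed AMPA level in the hippocampus, 59.0% for the thalamus and 61.0% for the hypothalamus. Grin1 led the NMDA genes with 75.8%, 58.4% and 66.1%, and Grik5, a high-affinity kainate subunit, led the kainate genes with 67.6%, 55.9% and 49.6%. The leading GABA-A gene among the 10 measured here differed by region. It was Gabra5 in the hippocampus with 43.2%, Gabrb2 in the thalamus with 29.1%, and Gabra3 in the hypothalamus with 30.5%. With the longest transcript as the length, Gabrb2 instead of Gabra3 led in the hypothalamus, whereas the other leading genes were the same.

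Genes that work with these receptors showed regional differences too. Of 19 genes of postsynaptic scaffolds, 13 were lower and 1 higher in the Sham + VH thalamus than in the hippocampus at 3 dpi, and 14 were lower and 2 higher in the hypothalamus. Of all genes, 40.9% (thalamus) and 46.7% (hypothalamus) were called in either direction. Of 15 genes of auxiliary receptor subunits, 7 were lower and 5 higher in each of these comparisons. Of 12 genes of transmitter synthesis and transport, 3 were lower and 5 higher in the thalamus, and 3 lower and 6 higher in the hypothalamus.

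The effect of injury without the drug was then examined in the hippocampus at 3 dpi. Of the 31 subunits tested, only Grm3 was called between TBI + VH and Sham + VH, and it rose. Of all genes tested, 8.99% were called higher and 1.72% lower. Grm3 encodes mGlu3, a metabotropic receptor found on astrocytes as well as neurons (chr5:9485541-9725170). It measured 38.8, 40.1, 47.5 and 45.0 CPM in Sham + VH, whereas the TBI + VH libraries had 60.4, 50.2, 56.3 and 54.3 CPM. All 4 injured libraries lay above the 4 sham libraries, and the log2 fold change was 0.37 ± 0.09 SE (FDR = 0.0111). At an unadjusted p under 0.05, 2 subunits were higher (Grm3 and Grin2c) and 4 lower (Grik4, Grid1, Grm2 and Gabrd), against 15.6% and 9.48% of all genes. The median log2 fold change of the subunits was -0.08, against -0.01 over all genes.

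Astrocyte and microglia genes moved in the same libraries. The summed CPM of 10 astrocyte markers was 4916 to 5752 in the 8 sham libraries and 8514 to 11423 in the 8 injured libraries of the hippocampus at 3 dpi. For 10 microglia and macrophage markers the ranges were 379 to 420 and 916 to 1597. In the contrast of injury over both drug arms, 8 of 10 astrocyte markers and 10 of 10 microglia markers were called higher. The part of these cells in the values of Grm3 was not tested. In addition, 12 choroid plexus markers summed to 207 to 6716 CPM in the Sham + VH group but only to 23.5 to 169 CPM after injury (TBI + VH). With the mean log2 CPM of these markers as a covariate, Grm3 was no longer called between TBI + VH and Sham + VH (log2 fold change 0.18, FDR = 0.551). Nor was it with the mean log2 CPM of 12 neuron markers as a covariate (0.23, FDR = 0.402), although Grin2c became called there (0.40 ± 0.11 SE, FDR = 0.0381). With the mean log2 CPM of 8 nuclear RNAs as a covariate Grm3 was still called (0.37 ± 0.10 SE, FDR = 0.0171).

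When injury was tested over both drug arms, 5 subunits fell and 1 rose in the hippocampus at 3 dpi, against 2.47% and 13.3% of all genes. Grm3 rose, from a median of 41.7 CPM (range 38.8 to 47.5) in the 8 sham libraries to 55.3 CPM (46.1 to 63.0) in the 8 injured ones, by 0.36 ± 0.07 SE on the log2 scale (FDR = 0.000407). Gabrd fell from 22.8 CPM (20.3 to 32.8) to 16.2 CPM (14.1 to 22.6), a log2 fold change of -0.48 ± 0.10 SE (FDR = 0.00132). Grin2b, which encodes GluN2B (chr6:135713233-136173511), fell from 54.6 CPM (39.7 to 75.8) to 40.8 CPM (30.6 to 61.9), a log2 fold change of -0.47 ± 0.11 SE (FDR = 0.00387). The ranges of each of these genes overlapped between injured and sham libraries.

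Grin2a, which encodes GluN2A, went from 24.8 CPM (20.0 to 36.1) to 19.2 CPM (13.2 to 26.7), with a log2 fold change of -0.45 ± 0.12 SE (FDR = 0.00711). Grm2, the presynaptic autoreceptor mGlu2 (chr9:106643095-106656082), went from 56.9 CPM (45.2 to 67.2) to 41.8 CPM (38.3 to 56.5), with -0.41 ± 0.09 SE (FDR = 0.00107). Gabrb2, the beta2 subunit gene (chr11:42419757-42629028), went from 213 CPM (182 to 266) to 175 CPM (149 to 192), with -0.34 ± 0.05 SE (FDR = 8.92e-05). Gabrb2 lay close to the fold threshold and lost its call without any of 4 single libraries, with log2 fold changes of -0.31 to -0.32. By FDR alone, 17 subunits were lower and 2 higher, against 16.3% and 20% of all genes, so that most of the decreases were smaller than the fold threshold. With the neuron marker mean as a covariate, Grm3, Grm2, Gabrd, Grin2a and Grin2b were no longer called for injury over both arms, with FDR values of 0.126 to 0.362. The log2 fold changes in that fit were 0.18 ± 0.12 SE for Grm3, -0.31 ± 0.17 for Grm2, -0.42 ± 0.20 for Gabrd, -0.47 ± 0.23 for Grin2a and -0.57 ± 0.22 for Grin2b. The values of Grm3, Grm2 and Gabrd were therefore smaller than without the covariate, whereas those of Grin2a and Grin2b were not. In the same fit Gabrb2 was still called, and Gabra4, Gria3, Grm5 (lower) and Grin2c (higher) became called. With the choroid plexus mean Grm3 had 0.28 ± 0.07 SE (FDR = 0.00585), below the fold threshold, and the 5 lower calls were the same. With the nuclear RNA mean Gabrb2 fell below the fold threshold (-0.31 ± 0.06 SE, FDR = 0.00106). Grm3, Grm2, Gabrd, Grin2a and Grin2b were still called in that fit. Other marker lists moved with injury as well. The 12 neuron markers summed to 10139 to 11118 CPM in the 8 sham libraries and to 8843 to 10216 CPM in the 8 injured ones, with 0 called and 10 lower by FDR alone. The 8 nuclear RNAs summed to 6659 to 8299 and 5456 to 6847 CPM, with 1 called lower and 1 higher, and 6 lower by FDR alone. Of 10 hippocampal neuron markers 2 were called lower, with sums of 880 to 1206 CPM among the 8 sham libraries and 610.3 to 984 CPM among the 8 injured ones. Of 10 oligodendrocyte markers 4 were called higher, with sums of 3281 to 8279 and 5332 to 8319 CPM. The ranges of all 4 lists overlap between sham and injured, and the part of these lists in the subunit values was not tested.

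Candesartan given to sham mice was compared with vehicle as the next question. No subunit was called between Sham + CD and Sham + VH in the hippocampus at 3 dpi by edgeR, where 1.5% of all genes were called. At an unadjusted p under 0.05, 12 subunits were higher and 0 lower, against 6.99% and 8.00% of all genes. Grin2b measured 39.7, 47.6, 47.8 and 53.4 CPM in Sham + VH and 55.8, 73.6, 75.6 and 75.8 CPM in Sham + CD. The groups did not overlap, and the log2 fold change was 0.57 ± 0.16 SE (FDR = 0.0824). Grin2a measured 20.0, 23.5, 24.5 and 21.1 CPM in Sham + VH and 25.1, 31.9, 31.2 and 36.1 CPM in Sham + CD. Its log2 fold change was 0.48 ± 0.17 SE (FDR = 0.166). DESeq2 called Grin2b at the same size (0.58, FDR = 0.0180), where it called 0.209% of all genes higher, and a fit to these groups alone called both Grin2a and Grin2b, among 0.156% of all genes higher. The choroid plexus markers moved in this comparison too, with 11 of 12 called lower and sums of 61.7 to 119 CPM in Sham + CD. With their mean as a covariate edgeR called no gene, 5 of 31 subunits and 1083 of all genes had an unadjusted p under 0.05, and Grin2b had a log2 fold change of 0.56 ± 0.24 SE (FDR = 0.735). Genes spanning over 100 kb had a median log2 fold change of 0.07, with 0.17 for the 22 subunits among them, and genes under 10 kb had -0.06.

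The clearest change in the subunits was between the injured and sham mice that both received candesartan. In TBI + CD against Sham + CD, a comparison added after the data had been examined, 13 of the 31 subunits were lower and 1 was higher. Of all genes tested, 5.67% were called lower and 14.4% higher. The libraries of the groups did not overlap for any of the 14 genes. The same count over all called genes is not given here, so this adds nothing beyond the calls. The lower subunits were 3 of the 4 AMPA genes (Gria1, Gria2 and Gria3), 2 of the 6 NMDA genes (Grin2a and Grin2b), 1 of the 5 kainate genes (Grik3), Grid1, 3 of the 6 metabotropic receptors (Grm2, Grm5 and Grm7) and 3 of the 9 GABA-A genes tested (Gabra4, Gabrb2 and Gabrd). The gene that rose was again Grm3. The median log2 fold change of the subunits was -0.29, against 0.00 over all genes, and 20 subunits were lower and 2 higher at an unadjusted p under 0.05, against 20.3% and 22.9% of all genes. The plot of fold changes shows this comparison beside the effects of injury and of drug alone.

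**Figure D2:**
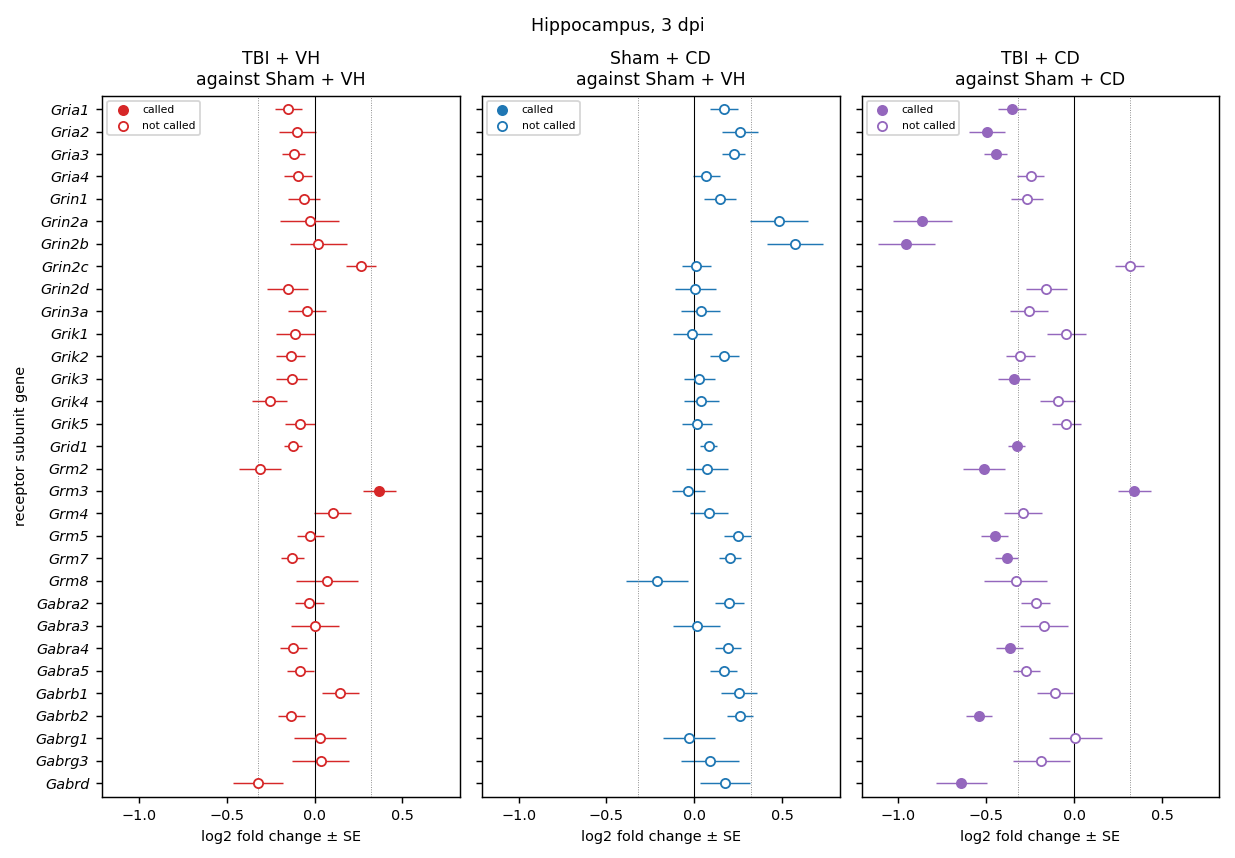
Log2 fold change ± SE of 31 subunit genes in the hippocampus at 3 dpi for TBI + VH against Sham + VH, Sham + CD against Sham + VH, and TBI + CD against Sham + CD. Filled points were called, and dotted lines mark 0.32 on either side of 0. In the right panel 13 filled points lie below 0 and 1, Grm3, above it.

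Grin2b and Grin2a had the largest decreases. Grin2b measured 55.8, 73.6, 75.6 and 75.8 CPM in Sham + CD and 30.6, 39.3, 32.5 and 42.4 CPM in TBI + CD, a log2 fold change of -0.96 ± 0.16 SE (FDR = 0.000263). Grin2a measured 25.1, 31.9, 31.2 and 36.1 CPM in Sham + CD and 14.7, 18.2, 15.1 and 20.2 CPM in TBI + CD, with -0.86 ± 0.17 SE (FDR = 0.000854). The TBI + VH libraries of both genes spread more widely and covered the Sham + VH range, from 31.2 to 61.9 CPM for Grin2b and from 13.2 to 26.7 CPM for Grin2a, with the same library lowest for both. The other NMDA genes moved less. The obligatory subunit gene Grin1 had a log2 fold change of -0.27 ± 0.09 SE, which passed the FDR (0.0274) but not the fold threshold.

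Among the AMPA genes, Gria2, whose GluA2 subunit keeps calcium out of the channel, measured 756, 824, 902 and 1020.2 CPM in Sham + CD and 604, 618, 552 and 709 CPM in TBI + CD. Every TBI + CD library was below every Sham + CD library (log2 fold change -0.50 ± 0.10 SE, FDR = 0.00136). Gria3, the GluA3 gene, measured 218, 239.9, 251 and 275 CPM in Sham + CD and 181, 183, 169 and 190.4 CPM in TBI + CD, with -0.45 ± 0.07 SE (FDR = 6.95e-05). Gria1 was lower by a log2 fold change of -0.35, and Gria4, at -0.25, did not pass the fold threshold.

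Gabrb2, a common beta subunit of synaptic GABA-A receptors, had the smallest p-value of the subunits in this comparison. It measured 212, 227, 239.9 and 266 CPM in Sham + CD and 149, 150.4, 173 and 177 CPM in TBI + CD, and its log2 fold change was -0.54 ± 0.08 SE (FDR = 4.08e-05). The delta subunit gene Gabrd gave -0.64 and its partner Gabra4 gave -0.37. Gabrg1, Gabrg3, Gabra3 and Gabrb1 had log2 fold changes between -0.19 and 0.01 and did not pass the test.

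Metabotropic receptors and Grid1 completed the group. Grm5, the postsynaptic receptor mGlu5, measured 245, 259.8, 271 and 282 CPM in Sham + CD and 180.0, 187, 185 and 221 CPM in TBI + CD, with a log2 fold change of -0.45 ± 0.08 SE (FDR = 0.000227). Grm7, a presynaptic receptor gene, measured 65.4, 64.2, 71.9 and 68.8 CPM in Sham + CD and 45.1, 54.7, 50.4 and 56.9 CPM in TBI + CD, with -0.38 ± 0.07 SE (FDR = 0.000262). Grid1, the gene of a delta receptor subunit that links synapses rather than binding glutamate, measured 79.9, 78.7, 77.2 and 81.6 CPM in Sham + CD and 61.6, 66.3, 58.4 and 66.8 CPM in TBI + CD. Its groups were tight and well apart, with a log2 fold change of -0.33 ± 0.05 SE (FDR = 8.70e-05), but the call rested on the fold threshold and was lost without any of 8 single libraries, at log2 fold changes of -0.27 to -0.32. The plot of libraries shows these genes with Grm2, Gabrd, Grm3 and Grin2c.

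**Figure D3:**
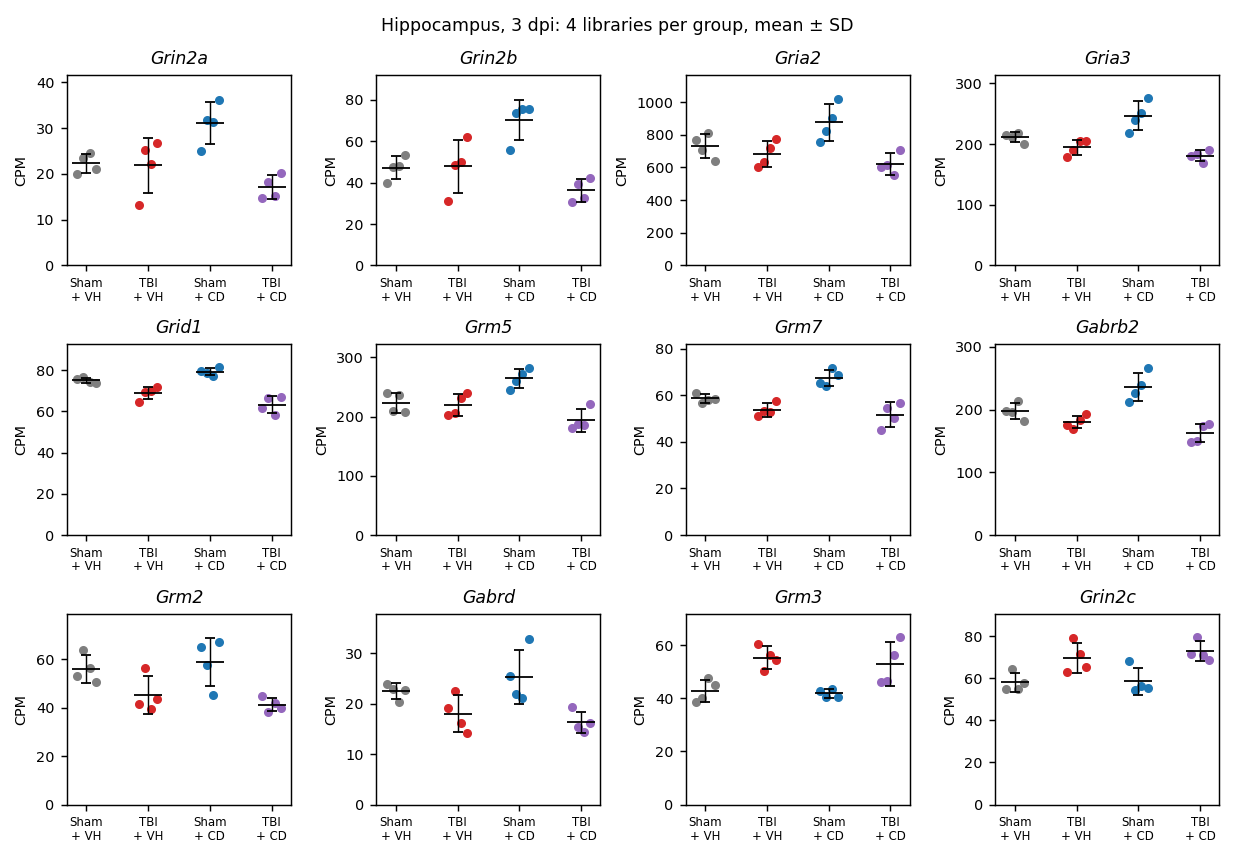
CPM of 12 subunit genes in the 4 groups of the hippocampus at 3 dpi. Points are libraries, and lines give the mean ± SD (n = 4). For Grin2b, 4 Sham + CD libraries lie at 55.8 to 75.8 CPM and 4 TBI + CD libraries at 30.6 to 42.4 CPM, while TBI + VH spreads from 31.2 to 61.9 CPM.

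Neuron markers fell in the same comparison. Of 12 neuron markers, 2 were called lower and 0 higher (median log2 fold change -0.22), and their summed CPM was 8856 to 10216 in TBI + CD, below the 10794 to 11118 of Sham + CD. Of 8 nuclear RNAs, 3 were called lower and 1 higher. With the neuron marker mean as a covariate, which was added after the data had been examined, 7 of the 13 subunits were still called lower. The other 6 no longer passed the FDR, with log2 fold changes of -0.89 for Grin2a (FDR = 0.0638), -0.57 for Gabrd (0.161), -0.46 for Grik3 (0.0677), -0.39 for Grm2 (0.249), -0.35 for Grm7 (0.0575) and -0.31 for Gria1 (0.140). Without the covariate the folds of Grin2a and Grik3 were smaller, at -0.86 and -0.34. Grm3 went from 0.34 to 0.14 (FDR = 0.587) and lost its call, and Grin2c became called (0.51, FDR = 0.0226). The neuron sums of the groups did not overlap, so this fit separates neuron content poorly from the contrast. The SE of Grin2b was 0.28 in it, against 0.17 with the choroid plexus mean. With the nuclear RNA mean 10 of the 13 were still called lower. Grid1 (-0.28, FDR = 0.00171) and Grm7 (-0.31, FDR = 0.00521) fell below the fold threshold, Grik3 (-0.26) did not pass the FDR (0.0748), and Grin1 became called (-0.33, FDR = 0.0330). With the choroid plexus mean all 13 were. Long genes as a class were lower as well. The 2285 tested genes spanning over 100 kb had a median log2 fold change of -0.14, with -0.32 for the 22 subunits among them. The 8995 genes of 10 to 100 kb had a median of 0.00, with -0.27 for their 9 subunits, and the 3662 genes under 10 kb had a median of 0.11. The part of span in the subunit values was not tested.

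The order of the group means was also counted, without a threshold. The count uses the same libraries as TBI + CD against Sham + CD, so it is not independent support for that comparison. In the hippocampus at 3 dpi, Sham + CD had the highest group mean and TBI + CD the lowest in 21 of the 31 subunits (67.7%), against 20.1% of all genes tested. At 29 dpi this order held in 10 of 31 (32.3%), against 8.67%. However, the effect of candesartan on the injury response, tested as the interaction of drug and injury, was not called for any subunit, nor for any gene in the table (0%). At an unadjusted p under 0.05, 10 subunits had a negative and 0 a positive interaction, against 6.52% and 6.59% of all genes. Grin2b had the smallest p, with an interaction of -0.98 ± 0.23 SE on the log2 scale (FDR = 0.0695). DESeq2 called 5 subunits here, Grin2b, Grm5, Gabrb2, Grin2a and Gria3, all negative, with FDR values of 0.00470 to 0.0415, where it called 0.507% of all genes lower. The fit with the replicate number as a block called Grin2a and Grin2b, among 0.209% of all genes called lower, although same-number libraries of different groups did not correlate steadily. Genes over 100 kb had a median interaction of -0.10 on the log2 scale, with -0.21 for the 22 subunits, and genes under 10 kb had 0.08. All 12 choroid plexus markers had a positive interaction at an unadjusted p under 0.05.

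TBI + CD against TBI + VH, which asks what candesartan did after injury, called no subunit and no gene (0%) in the hippocampus at 3 dpi. At an unadjusted p under 0.05 there were 5 subunits, all lower in TBI + CD, against 2.34% of all genes, and they were Grin2b, Grid1, Grm4, Grm5 and Grm8. DESeq2 called no subunit either. Grin2b had a log2 fold change of -0.40 ± 0.16 SE, and Grm8 had -0.62 ± 0.18 SE.

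Against Sham + VH, TBI + CD had 3 subunits lower and 1 higher, compared with 1.86% and 10.3% of all genes. Grin2c, an NMDA subunit gene that astrocytes of the forebrain also express, measured 54.7, 64.3, 55.0 and 57.9 CPM in Sham + VH and 71.7, 79.6, 70.8 and 68.8 CPM in TBI + CD, so that the groups did not overlap (log2 fold change 0.33 ± 0.08 SE, FDR = 0.0109). Gabrd measured 24.0, 23.0, 20.3 and 22.6 CPM in Sham + VH and 19.2, 15.4, 14.4 and 16.1 CPM in TBI + CD, with -0.47 ± 0.14 SE (FDR = 0.0337). Grm2 measured 53.1, 63.8, 56.1 and 50.5 CPM in Sham + VH and 44.7, 38.3, 41.9 and 39.8 CPM in TBI + CD, with -0.44 ± 0.12 SE (FDR = 0.0171). Grm8, with 7.30, 6.28, 7.83 and 5.60 CPM in Sham + VH and 3.17, 4.10, 5.12 and 6.01 CPM in TBI + CD, overlapped between the groups (-0.55 ± 0.18 SE, FDR = 0.0438). Each of these 4 calls was lost when some single library was left out, and with the choroid plexus mean as a covariate Grin2c, Grm2 and Gabrd were no longer called. In that fit Grin2c had a log2 fold change of 0.36 ± 0.11 SE (FDR = 0.0540), Grm2 of -0.37 ± 0.15 SE (FDR = 0.158) and Gabrd of -0.26 ± 0.17 SE (FDR = 0.402), and Gabrb2 became called (-0.37 ± 0.09 SE, FDR = 0.0183). With the neuron mean Grm8 (-0.52, FDR = 0.268), Grm2 (-0.35, FDR = 0.257) and Gabrd (-0.42, FDR = 0.271) were no longer called. Grin2c was still called there (0.46, FDR = 0.0129), and Gabrb2 became called (-0.39, FDR = 0.0294). With the nuclear RNA mean all 4 were still called. The comparisons of the hippocampus share the Sham + VH and other group libraries and are not independent of each other.

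Some partner genes of the receptors also changed in the injured, candesartan-treated hippocampus. In TBI + CD against Sham + CD, 4 of 19 scaffold genes, 5 of 15 auxiliary subunit genes and 2 of 12 transmitter genes were lower, and 1 auxiliary subunit gene was higher, where 5.67% of all genes were lower and 14.4% higher. Among those with the smallest p were Gad1, the GABA-synthesizing enzyme (log2 fold change -0.37), Shisa9, an AMPA receptor auxiliary protein (-0.40), Homer1, a scaffold that binds group I metabotropic receptors (-0.43), and Cnih3, a cornichon auxiliary protein of AMPA receptors (-0.33). In TBI + VH against Sham + VH, only Cacng5, a gene of the TARP family of AMPA receptor auxiliary subunits, was called among these lists, and it rose (0.78 ± 0.21 SE, FDR = 0.0169). Over both drug arms Cacng5 rose (0.64), and Shisa9 (-0.34), Cacng2, the stargazin gene (-0.32), Gsg1l (-0.34) and Slc17a8, the vesicular glutamate transporter VGLUT3 (-0.50), fell. Against Sham + VH, Cnih3 was lower in TBI + CD (-0.33).

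At 29 dpi no subunit was called in the hippocampus in any contrast by edgeR. For injury over both drug arms 1.62% of all genes were called, and 4 of 31 subunits were lower and 2 higher at an unadjusted p under 0.05, against 3.52% and 7.46% of all genes. Grin2b had the smallest p. It measured 65.5, 74.6, 91.3 and 65.9 CPM in the Sham + VH libraries, then 78.7, 56.6, 56.8 and 64.3 CPM for TBI + VH, 90.7, 71.4, 66.1 and 56.1 CPM in Sham + CD, and 61.7, 46.9, 39.4 and 35.3 CPM in TBI + CD. The TBI + CD libraries were all below the Sham + VH libraries, with a log2 fold change of -0.71 ± 0.17 SE (FDR = 0.193). For injury over both arms it was -0.41 ± 0.12 SE (FDR = 0.105). DESeq2 called Grin2b for injury over both arms (-0.43, FDR = 0.0188), as did edgeR without TBI + CD replicate 1 (-0.50, FDR = 0.0248). DESeq2 called 0.0416% of all genes lower there. It also called Grin2b lower in TBI + CD than in Sham + VH and Sham + CD, where 0.0178% and 0.0238% of all genes were. The nuclear RNA Malat1 was also lowest in TBI + CD at 29 dpi, at 714 to 1083 CPM against 1189 to 1673 CPM in the other 3 groups. With the mean log2 CPM of 8 nuclear RNAs, Malat1 among them, as a covariate, Grin2b had a log2 fold change of -0.32 for injury over both arms (FDR = 0.244).

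Gabrd had the next smallest p for injury in the hippocampus at 29 dpi. Its 8 sham libraries ran from 22.1 to 31.5 CPM with a median of 23.3 CPM, and the 8 injured ones from 14.2 to 24.1 CPM with a median of 21.3 CPM (log2 fold change -0.29 ± 0.10 SE, FDR = 0.188). The ranges overlapped. Among the partner genes, Slc6a13, the GABA transporter GAT2 found in meninges, was called higher after injury (0.90 ± 0.22 SE, FDR = 0.0425).

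In the thalamus and hypothalamus no subunit was called in any of 7 contrasts at either time point, by edgeR or by DESeq2. For injury over both drug arms 0.907% of all genes were called in the thalamus at 3 dpi, 0% at 29 dpi, 0.0177% in the hypothalamus at 3 dpi and 0.00583% at 29 dpi, so calls were rare in general. The subunits with unadjusted p under 0.05 for injury numbered 1 and 4 of 31 in the thalamus at 3 and 29 dpi, against 6.44% and 6.75% of all genes, and 2 and 0 of 31 in the hypothalamus, against 7.33% and 2.94%. For Sham + CD against Sham + VH, 2 were higher and 4 lower in the thalamus at 3 dpi, against 3.98% and 2.89% of all genes. In the hypothalamus at 29 dpi 5 were higher and 1 lower, against 6.12% and 7.10%. The thalamus at 29 dpi had 0 and 2, and the hypothalamus at 3 dpi 2 and 0. In the thalamus at 3 dpi the smallest p for injury was that of Gria4 (sham median 160.5 CPM, range 150.3 to 169; injured 152 CPM, 138 to 161; log2 fold change -0.08 ± 0.04 SE, FDR = 0.710), followed by Grin1 (539 CPM, 486 to 558, against 503 CPM, 484 to 539; -0.07 ± 0.03 SE), whose unadjusted p was above 0.05. At 29 dpi Gabrg1 measured 37.2 CPM (27.2 to 47.0) in sham and 46.7 CPM (32.4 to 54.6) in injured thalamus, a log2 fold change of 0.30 ± 0.10 SE (FDR = 0.583). Grin1 was there at 537 CPM (518 to 591) and 511 CPM (478 to 553), with -0.09 ± 0.04 SE.

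In the hypothalamus at 3 dpi, Grid1 measured 97.5 CPM (96.2 to 104) in sham and 91.6 CPM (90.4 to 100.2) in injured mice, a log2 fold change of -0.09 ± 0.03 SE (FDR = 0.665). Grin2d measured 59.2 CPM (38.2 to 73.9) and 51.8 CPM (44.3 to 56.3), with -0.23 ± 0.10 SE. At 29 dpi the genes with the smallest p were Grin2b (17.6 CPM, 14.9 to 21.7, against 20.3 CPM, 15.3 to 25.98; 0.18 ± 0.09 SE, FDR = 0.9999) and Gria2 (469.8 CPM, 426 to 522, against 439.7 CPM, 417 to 478; -0.07 ± 0.04 SE). All of these ranges overlapped. The injury effects of all 31 subunits in the 6 sets are plotted together.

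**Figure D4:**
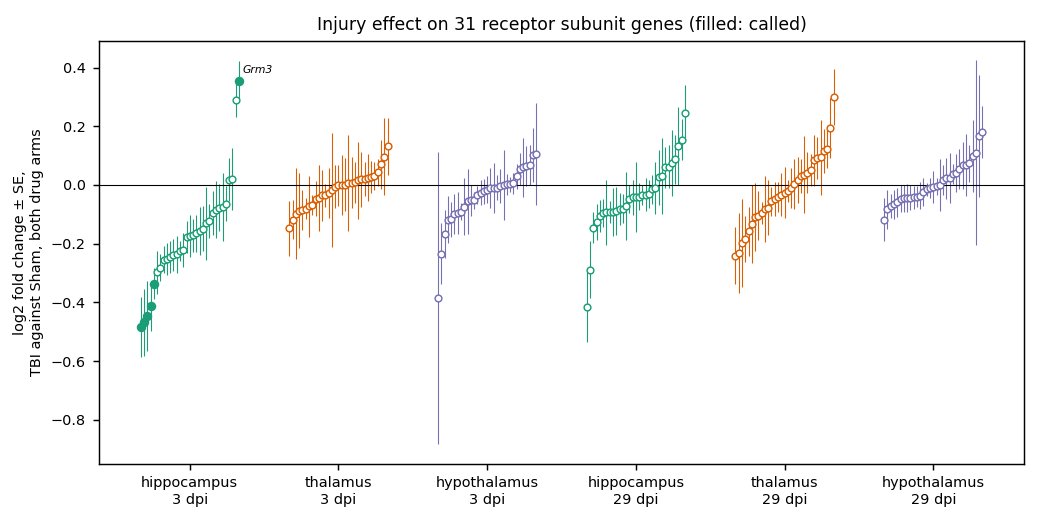
Log2 fold change ± SE of TBI against Sham over both drug arms for 31 subunit genes, sorted within each region and time point. Filled points were called. The 6 filled points are in the hippocampus at 3 dpi, with Grm3 at 0.36 and 5 genes from -0.48 to -0.34.

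In the hypothalamus, the highest values of Gabrd, and at 3 dpi that of Gabra4, lay in libraries with high sums of thalamic markers. No correlation over the libraries is given. Among these markers, Slc17a6 alone had a median of 264 CPM in the hypothalamus at 3 dpi. Gabrd ranged from 0.76 to 10.96 CPM and Gabra4 from 33.9 to 63.8 CPM over the 16 hypothalamus libraries at 3 dpi. Both were highest in Sham + CD replicate 4, which also had the highest thalamic marker sum, 728 CPM. The next highest Gabrd was in TBI + VH replicate 1 (5.41 CPM, marker sum 718 CPM). At 29 dpi the highest Gabrd values were 8.83 and 5.23 CPM in TBI + CD replicates 4 and 2, whose marker sums of 770.0 and 837 CPM were the highest of that set. The part of thalamic tissue in these values was not tested. Gabrd and Gabra4 were not called in any hypothalamic contrast.

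**Figure D5:**
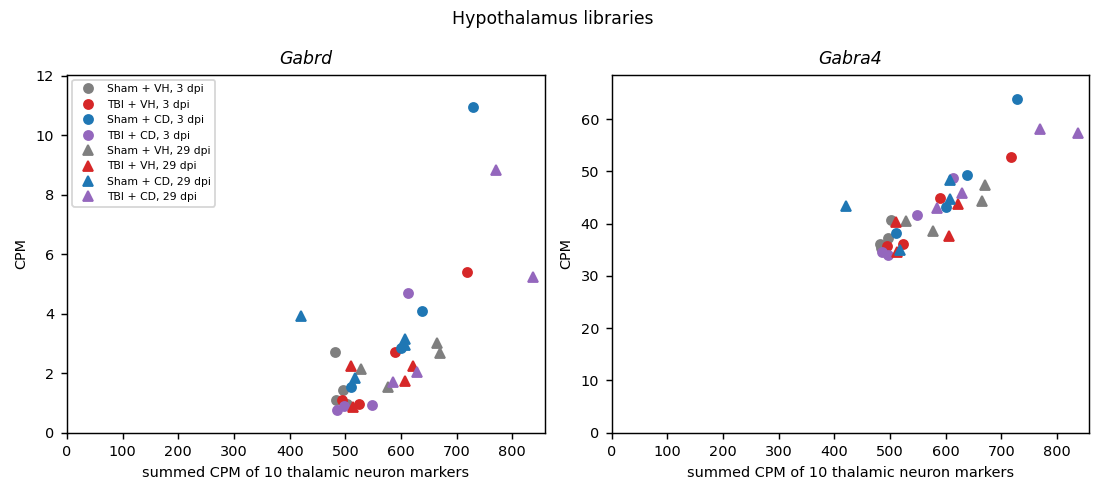
CPM of Gabrd (left) and Gabra4 (right) in the 32 hypothalamus libraries against the summed CPM of 10 thalamic neuron markers. Each point is 1 library, colored by group, with circles for 3 dpi and triangles for 29 dpi. Gabrd was highest, at 10.96 CPM, in a library with a marker sum of 728 CPM.

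Finally, the injury effect was compared between regions in a fit to all 48 libraries of a time point. This fit and that of the regional levels treat the libraries as independent, although regions may come from the same mouse, and their p-values do not allow for it. At 3 dpi, Gria1 and Gria2 responded more negatively in the hippocampus than in the thalamus, with 1.55% of all genes lower and 8.59% higher. The difference in log2 fold change was -0.32 ± 0.07 SE for Gria1 (FDR = 0.000330) and -0.33 ± 0.11 SE for Gria2 (FDR = 0.0353). In the thalamus on its own, the injury effect was 0.04 ± 0.05 SE for Gria1 and 0.00 ± 0.09 SE for Gria2. Against the hypothalamus, Grin2b (-0.59 ± 0.21 SE, FDR = 0.0449) and Grm2 (-0.54 ± 0.19 SE, FDR = 0.0444) were lower, and Grm3 (0.41 ± 0.11 SE, FDR = 0.00706) and Grin2c (0.37 ± 0.13 SE, FDR = 0.0450) were higher. Of all genes 1.89% were lower and 9.51% higher in that comparison. Except for Grm3, these calls lay near a threshold, and each was lost when some single libraries were left out. At 29 dpi no subunit was called in these contrasts, against 0.0669% and 0.184% of all genes, and 3 and 1 of 32 subunits had an unadjusted p under 0.05, against 5.77% and 5.53% of all genes.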

How the data were processed

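The authors made paired-end libraries with a stranded mRNA kit, aligned the reads to mm10 with MapSplice and counted them per gene with HTSeq 0.9.1. The gene annotation, the strand setting and the handling of reads with several matches are not given in the sources used here. The deposited values are whole-number counts per gene, not normalized, in 1 table per time point. Symbols were stripped of blanks, and 71% of the 32594 matched GENCODE vM21.

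Counts were tested with edgeR 4.0.16 under R 4.3.3 (filterByExpr, TMM, quasi-likelihood F test, Benjamini-Hochberg over all genes tested), in 6 fits of 16 libraries (region by time point) and, for differences between regions, in a fit of 48 libraries per time point. Calls needed an FDR under 0.05 together with a log2 fold change beyond 0.32 in either direction. Library totals set the precision of each value. The SE was the absolute log2 fold change over the square root of F. Scripts were tested on simulated data. Alternatives were DESeq2 1.42.0, other scaling, no filter, a replicate block, covariates (the mean log2 CPM, prior count 2, of neuron, nuclear RNA or choroid plexus markers), fits to the compared groups only and leaving out each library. Genes were named by rule: all called subunits (at most the 8 with the smallest p), otherwise the 2 with the smallest p for injury over both arms, the 3 largest differences per region pair, and up to 5 called partner genes, of which 1 is not reported here. Other subunits given with values were chosen after their values were seen. The subunits and the gene lists were chosen with earlier results of these data known. The contrast of TBI + CD against Sham + CD and the neuron covariate were added after the data had been examined.

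Within groups, no 2 libraries agreed within sampling noise (chi-square over degrees of freedom 2.64 to 48.1 in 144 pairs).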

Additional observations from a re-analysis of the deposited data

Results flagged for a closer look

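In 3 of 92 groups of 4 libraries tested, 1 library lay far from the other 3 by Dixon's ratio of gap to range (against the 95% critical value for 4 samples). Chance alone gives about 1 in 20 such groups. Grin2b in the hippocampus of Sham + CD mice at 3 dpi had a ratio of 0.891, with replicate 1 at 55.8 CPM below the others at 73.6 to 75.8 CPM. Grin2c in the same group had a ratio of 0.834, and again replicate 1 stood apart, at 68.0 CPM above 54.2 to 56.5 CPM. Gabrd in the hippocampus of Sham + VH mice at 29 dpi had a ratio of 0.903, with replicate 3 at 31.5 CPM above 22.1 to 23.0 CPM. That library also had the highest summed level of 10 hypothalamic neuron markers of its set, and the part of this was not tested.

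The injury effect of 6 subunits at 3 dpi differed between the hippocampus and another region by the test of the difference itself. Against the thalamus the difference in log2 fold change was -0.32 for Gria1 and -0.33 for Gria2. Against the hypothalamus it was -0.59 for Grin2b, -0.54 for Grm2, 0.37 for Grin2c and 0.41 for Grm3. The hypothalamus alone had injury effects of 0.10 ± 0.09 SE for Grin2b, 0.10 ± 0.17 SE for Grm2, -0.10 ± 0.07 SE for Grin2c and -0.07 ± 0.10 SE for Grm3.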

How the results depend on the processing

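Among the results named by rule, no direction reversed in the alternatives run for them. Grin2b in TBI + VH against Sham + VH in the hippocampus at 3 dpi was not among these. It went from 0.02 to -0.07 with the neuron covariate, with an SE of 0.23. In the hippocampus at 3 dpi, by FDR alone the subunits called higher became 2 instead of 1 for TBI + VH against Sham + VH, for TBI + CD against Sham + CD, for TBI + CD against Sham + VH and for injury. Those called lower became 7 instead of 3 for TBI + CD against Sham + VH and 17 instead of 5 for injury. They rose above 13 for TBI + CD against Sham + CD, Grin1 among them. For injury 20% of all genes were higher and 16.3% lower by FDR alone, and the other shares are not given here. Fitting only the compared groups gave 2 higher for Sham + CD against Sham + VH and 2 higher for TBI + CD against Sham + CD, against 0.156% and 14.3% of all genes. With the choroid plexus covariate 0 were higher for TBI + VH against Sham + VH, for TBI + CD against Sham + VH and for injury, against 3.70%, 6.90% and 12.6% of all genes. With the neuron covariate 7 were lower for TBI + CD against Sham + CD and 1 (Gabrb2) for TBI + CD against Sham + VH, against 3.68% and 0.925%. Without the filter 0 were higher for TBI + CD against Sham + VH, and 1 was lower for the interaction, with the shares of all genes not given here. DESeq2 gave 5 lower for the interaction and 1 higher for Sham + CD against Sham + VH, against 0.507% and 0.209% of all genes.

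At 29 dpi in the hippocampus DESeq2 called 1 lower (Grin2b) for injury and for TBI + CD against each sham group. Between regions at 3 dpi, FDR alone gave 6 (hypothalamus) and 5 (thalamus) lower instead of 2 and 2, where 1397 and 1406 of all 17788 genes tested were lower. RLE scaling and no filter each left 1 higher instead of 2 against the hypothalamus.

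Leaving out each library in turn gave, at 3 dpi in the hippocampus, 0 to 5 lower and 0 to 2 higher for TBI + CD against Sham + VH, 0 to 3 lower for TBI + VH against Sham + VH (3 without TBI + VH replicate 2), 0 to 3 lower for the interaction (3 without Sham + VH replicate 3), 0 to 2 higher for Sham + CD against Sham + VH (2 without TBI + VH replicate 1), 11 to 14 lower and 1 to 2 higher for TBI + CD against Sham + CD, and 4 to 6 lower and 1 to 2 higher for injury. At 29 dpi it gave 0 to 1 lower for those 3 contrasts (1 without TBI + CD replicate 1). The regional difference in injury effect ranged from 0 to 5 lower and 0 to 2 higher against the thalamus, and from 0 to 3 lower and 1 to 2 higher against the hypothalamus. The shares of all genes called in these refits are not given here, so the counts show only how steady the subunit calls were.

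Within a region and time point, same-number deviations of different treatment groups correlated at -0.604 to 0.725. They were over 0.1 in 68 of 144, and in 0 of 36 group pairs for every number. These groups were different mice, and whether a number marks the same mouse in different regions was not checked. With the replicate block, 2 subunits were lower for the interaction, 1 was higher for Sham + CD against Sham + VH, 1 was lower for injury at 29 dpi, and 4 and 4 were lower against the hypothalamus and thalamus. The same fits called 0.209%, 0.173%, 0.0356%, 2.23% and 1.79% of all genes in those directions, compared with 0%, 0.0836%, 0.0297%, 1.89% and 1.55% without the block.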

Other observations

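Gabra6 was at most 0.403 CPM in every library at 3 dpi. At 29 dpi 1 library stood out, hippocampus TBI + CD replicate 4, with 3.08 CPM and a summed level of 8 cerebellar neuron markers of 108 CPM, against 55.7 to 101 CPM in the other hippocampus libraries of that time point. The order of group means with Sham + CD highest and TBI + CD lowest, common in the hippocampus, held in 5 of 31 subunits in the thalamus at 3 dpi (16.1%, against 7.77% of all genes) and 8 of 31 at 29 dpi (25.8%, against 14.8%). In the hypothalamus it held in 4 of 31 at 3 dpi (12.9%, against 11.5%) and 3 of 31 at 29 dpi (9.68%, against 8.56%).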
